A study of Mus musculus with 6 samples.

Results

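Transcript levels of 10 neutrophil genes were followed in single cells of the mouse rotator cuff enthesis, where tendon inserts into bone, at 7 days after injury. They were picked by symbol, with earlier results of these data known, out of the 32285 genes in the count matrices. Elane, Mpo, Prtn3 and Ctsg encode proteins of azurophil (primary) granules. Fcnb encodes the lectin ficolin B, and Cebpe encodes the transcription factor C/EBP epsilon. Ngp, Camp, Ltf and Lcn2 encode proteins of specific (secondary) granules. Elane encodes neutrophil elastase, Prtn3 proteinase 3, and Ctsg cathepsin G, which are serine proteases, while myeloperoxidase, the product of Mpo, makes hypochlorous acid. Camp encodes the antimicrobial peptide cathelicidin, Ltf the iron-binding lactoferrin, Lcn2 a lipocalin that binds bacterial siderophores, and Ngp a cystatin-related granule protein.

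There were 3 libraries from wild-type C57BL/6 mice and 3 from mice with a global Nlrp3 knockout (Nlrp3-/-), all taken after rotator cuff tear and repair. Enthesis tissue was pooled before the cells were dissociated. The labels do not give the number of mice behind a library, so p-values measure the spread between these libraries. Cells were captured with droplet-based 3′ chemistry, and each value is a number of unique molecular identifiers (UMIs), the molecules counted for a gene in a barcode.

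The libraries held between 97042713 and 134901999 UMIs. After filtering, 70285 cells entered the comparisons, of which 20494 were neutrophils. A further 10066 cells of clusters that came mostly from Nlrp3-/- replicate 1 were set aside, and these made up 47.2% of the cells of Nlrp3-/- replicate 1 and at most 1.10% of those of any other library. Between 27 and 92 cell barcodes were shared by any 2 libraries. Nlrp3 had between 7856 and 16119 UMIs in the wild-type libraries and 0 in all 3 Nlrp3-/- libraries. In 2 of the Nlrp3-/- libraries the genotype field of the labels names another Nlrp gene, whereas their titles name Nlrp3, and the titles were used. The Y-linked gene Ddx3y was at 39.8 to 57.7 CPM (UMIs per 1000000 UMIs of the same cells) in the wild-type libraries and at 0 in the Nlrp3-/- libraries. Xist, which is expressed from the inactive X chromosome, was at 783 to 930 CPM in the Nlrp3-/- libraries and had at most 12 UMIs in a wild-type library. Sex and genotype therefore cannot be told apart in any difference between the groups given here.

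Neutrophils make their granules in sequence. Azurophil proteins are made first, in promyelocytes, and specific granule proteins follow in myelocytes and metamyelocytes, so that the content of a granule reflects the stage at which it was packed. C/EBP epsilon is the factor most closely tied to the specific granule programme, and mice without it lack these granules. Cells leaving the marrow as mature neutrophils carry the stored proteins while the transcripts themselves have largely disappeared. Lcn2 can also be made by inflamed stromal and epithelial cells.

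The genes lie on 5 chromosomes of the mouse genome (GENCODE vM21 annotation of build GRCm38). Prtn3 (chr10:79874476-79883174) and Elane (chr10:79886247-79888215) are neighbours on the plus strand of chromosome 10. Ngp, Camp and Ltf all lie on chromosome 9, Fcnb and Lcn2 on chromosome 2, and Cebpe and Ctsg on chromosome 14, and Mpo is on chromosome 11. In this annotation Prtn3 overlaps Plppr3 and Mpo overlaps Gm11505, so counts of these 2 genes carry that uncertainty, and the other 8 genes overlap no annotated gene.

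Sequence upstream of the start site was available for 9 of the 10 genes (RefSeq, GRCm38.p6). Within 250 bases before the start, the C/EBP-type motif TTNNGNAA was present on either strand in 4 of the 9, namely Fcnb, Ngp, Ltf and Lcn2. It was present in 36.8% of all 32851 promoters of that length. The PU.1-type motif GAGGAA was present in 6 of the 9 genes, which were the 4 azurophil genes, Ltf and Lcn2, against 23.3% of all promoters. A match to either motif describes letters in this window and not binding. The stretches below show how the motifs lie in a pair of azurophil genes, in Fcnb and in 2 specific granule genes. Only bases outside annotated genes are given, 5′ to 3′ on the strand of the gene. Capitals mark GAGGAA in Elane, at chr10:79886062-79886246 (plus strand), and in Ctsg, at chr14:56102575-56102824 (minus strand). Capitals mark TTNNGNAA in Fcnb, at chr2:28084886-28085128 (minus strand), in Ngp, at chr9:110419558-110419746 (plus strand), and in Ltf, at chr9:111019042-111019270 (plus strand), and those in Ngp are its reverse complement. A further match in Ngp lies inside the annotated gene and is not shown.
Elane: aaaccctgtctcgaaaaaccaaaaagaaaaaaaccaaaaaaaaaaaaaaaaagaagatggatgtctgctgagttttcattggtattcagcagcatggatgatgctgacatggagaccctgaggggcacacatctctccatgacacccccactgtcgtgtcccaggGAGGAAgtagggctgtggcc
Ctsg: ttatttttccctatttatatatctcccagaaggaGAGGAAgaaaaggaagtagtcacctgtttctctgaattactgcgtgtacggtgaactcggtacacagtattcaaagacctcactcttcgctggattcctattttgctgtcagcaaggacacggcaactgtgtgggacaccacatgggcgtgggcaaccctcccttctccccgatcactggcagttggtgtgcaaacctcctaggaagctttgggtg
Fcnb: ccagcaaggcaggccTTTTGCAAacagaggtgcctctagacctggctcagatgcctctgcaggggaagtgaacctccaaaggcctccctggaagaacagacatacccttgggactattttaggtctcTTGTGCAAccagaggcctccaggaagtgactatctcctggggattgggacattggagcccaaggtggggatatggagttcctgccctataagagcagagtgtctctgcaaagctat
Ngp: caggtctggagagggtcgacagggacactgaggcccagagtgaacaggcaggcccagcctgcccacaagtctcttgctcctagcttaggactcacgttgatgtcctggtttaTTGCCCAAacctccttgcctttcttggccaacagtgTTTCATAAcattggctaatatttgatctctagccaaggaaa
Ltf: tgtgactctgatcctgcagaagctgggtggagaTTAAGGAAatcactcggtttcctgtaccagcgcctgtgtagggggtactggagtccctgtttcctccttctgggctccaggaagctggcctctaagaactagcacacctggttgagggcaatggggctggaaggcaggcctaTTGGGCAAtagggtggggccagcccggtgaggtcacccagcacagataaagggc

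Clusters and stages were made without the 10 genes, so the genes did not place a cell in a stage. Of the 20494 neutrophils, 3165 were dividing precursors, 6580 were immature and 10062 were mature, and 687 could not be staged. The dividing precursors formed an early subcluster of 1075 cells, led by Ms4a3, Nkg7 and Prss57, and a late subcluster of 2090 cells, led by cell cycle genes. Beside them stood dividing cells with F13a1, Ms4a6c and Irf8 or Ccr2 among their leading genes, whose markers gave no class. They are called F13a1 dividing cells here, with an early group of 715 cells and a late group of 1058 cells. Because the clusters came from the same cells, levels by stage are given as a description, with no test. A level in CPM is the UMIs of a gene summed over the cells of a library and stage, relative to all UMIs of those cells.

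The azurophil genes were high in early dividing precursors and had nearly gone by the immature stage. Elane was at 14870, 16681 and 14160 CPM in early dividing precursors of wild-type replicates 1 to 3, and at 15064, 13056 and 15219 CPM in those of Nlrp3-/- replicates 1 to 3. In late dividing precursors Elane lay between 247 and 663 CPM over the 6 libraries, and in immature neutrophils between 7.92 and 23.7 CPM. The ranges of these 3 stages did not overlap. The fall in Elane from early dividing precursors to immature neutrophils was 10.3 on the log2 scale as the median over libraries. The immature level is read as background below, so the size of this fall depends on that background.

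Mpo fell from 5389 to 6560 CPM in early dividing precursors to 27.4 to 83.4 CPM in late ones. Prtn3 was at 10286 to 13441 CPM in early and 265 to 539 CPM in late dividing precursors. Ctsg was at 4714 to 7099 CPM in early and 20.1 to 42.7 CPM in late dividing precursors. In immature and mature neutrophils all 4 genes lay between 3.25 and 51.8 CPM in each library. A cell of the early group held a median of 151 to 358 Elane UMIs in a library, and the median cell of the late group held none.

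**Figure D1:**
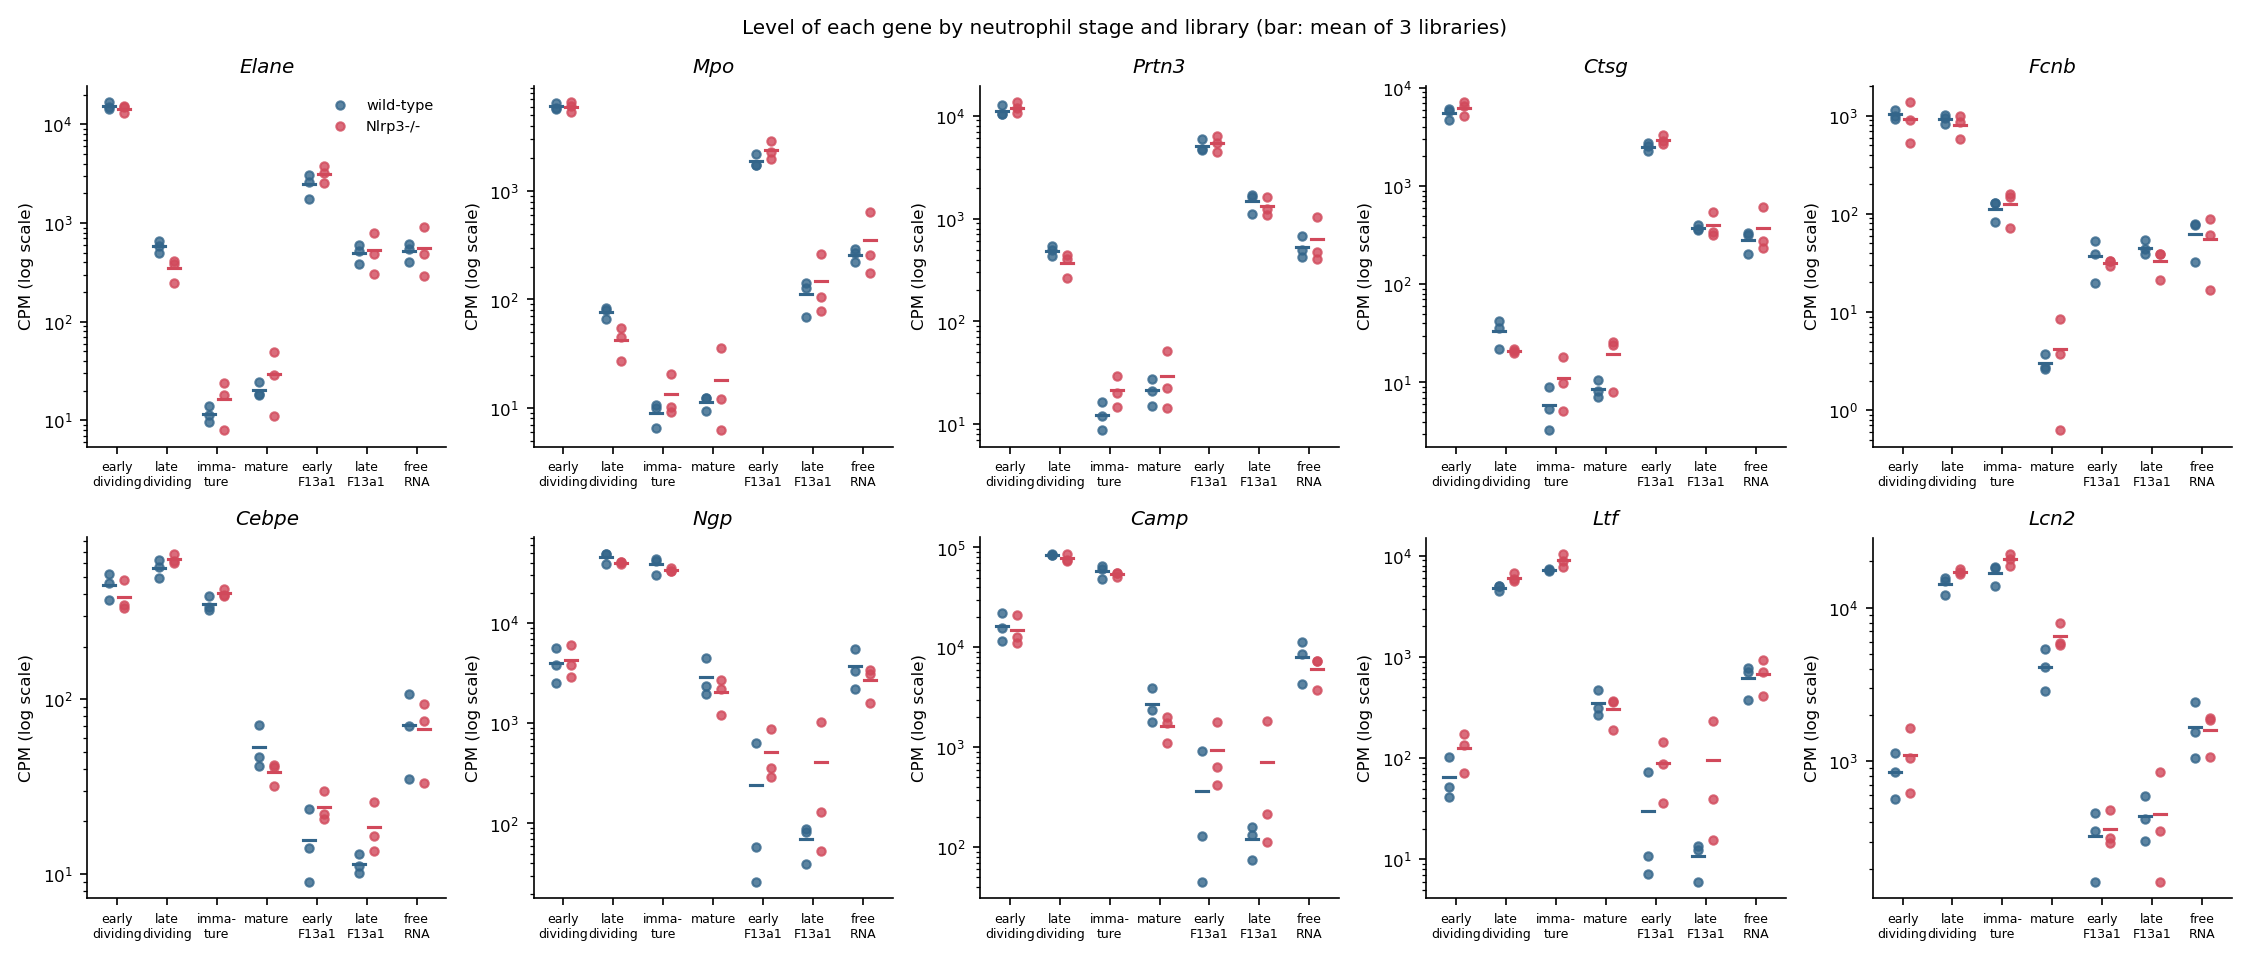
Level of each of the 10 genes (CPM, log scale) in 4 neutrophil stages, the 2 groups of F13a1 dividing cells and free RNA, with 1 point per library and a bar at the mean of 3 libraries. Elane, Mpo, Prtn3 and Ctsg drop at each step from early dividing to immature neutrophils, whereas Ngp, Camp, Ltf and Lcn2 rise from early to late dividing precursors.

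To compare shares of cells at equal depth, each cell was reduced to 500 UMIs. On that scale 96.9% of early dividing precursors had at least 1 Elane UMI, as the median over libraries, against 10.1% of late dividing precursors, 0.706% of immature neutrophils and 1.22% of mature neutrophils. B cells, which do not make the protease, gave 0.874%. The share in immature neutrophils lay below this and is read as background. That in mature neutrophils lay slightly above it, and how much of it is background was not tested. At full depth the same 5 shares were 99.7%, 33.1%, 4.84%, 3.26% and 4.35%, with median depths per library of 11389 to 21163 UMIs in early dividing precursors and 1540.5 to 3367 UMIs in B cells.

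Fcnb stayed high for longer than the azurophil genes. It was at 535 to 1371 CPM in early and at 582 to 1029 CPM in late dividing precursors, and these ranges overlapped. Its level was 71.3 to 159 CPM in immature neutrophils and 0.621 to 8.41 CPM in mature neutrophils. In immature neutrophils it had a median of 307 CPM in the subcluster led by Orm1 and Chil3, against 30.8 CPM in the subcluster led by Mmp8 and Ldhc and 9.86 CPM in that led by Mmp8 and Gpr27.

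Cebpe was present through 3 stages and then dropped. It was at 332 to 523 CPM in early dividing precursors, 494 to 678 CPM in late ones and 326 to 425 CPM in immature neutrophils. The early and immature ranges overlapped, and the order of these 2 stages turned when the 10 genes were kept for clustering (a log2 difference of 0.16 without them and -0.26 with them). In mature neutrophils Cebpe lay between 31.7 and 70.7 CPM. Each library had a lower Cebpe level in mature neutrophils than in any earlier stage.

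The specific granule genes rose from early to late dividing precursors in all 6 libraries. Camp was at 11089 to 22153 CPM in early and 72676 to 86217 CPM in late dividing precursors, where it made up several percent of all UMIs. Ngp was at 2540 to 6019 CPM in early and 38698 to 49004 CPM in late dividing precursors. Lcn2 was at 568 to 1636 CPM in early and 12124 to 17745 CPM in late dividing precursors. Ltf was at 41.2 to 173 CPM in early and 4435 to 6737 CPM in late dividing precursors.

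These 4 genes did not all decline together. From late dividing precursors to immature neutrophils, Camp went from a median of 83544 to 55436 CPM and Ngp from 40663 to 34470 CPM. Ltf went from 5321 to 7587 CPM and was higher in the immature stage in each library. Lcn2 went from 16083 to 18580 CPM and was also higher in the immature stage in each library. In mature neutrophils the medians were 1900 CPM for Camp, 2276 CPM for Ngp and 337 CPM for Ltf. Lcn2 kept a median of 5525 CPM there, with a range of 2875 to 7989 CPM.

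Mature neutrophils were not uniform. In the subcluster led by Retnlg and Cstdc5, which also carried markers of the immature stage, Ngp had a median of 8102 CPM and Ltf of 975 CPM. In the subcluster led by Il1a and Cxcl3 they were at 491 and 118 CPM, and Lcn2 was at 774 CPM. A further subcluster led by Cxcl3 and Il1a, most of whose cells came from wild-type replicate 3 (512 cells) and Nlrp3-/- replicate 1 (626 cells), had Lcn2 at 10008 and 9930 CPM in those 2 libraries, while its median Ngp was 502 CPM and its median Ltf 123 CPM. High Lcn2 in mature cells was therefore seen both with and without the other specific granule genes.

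**Figure D2:**
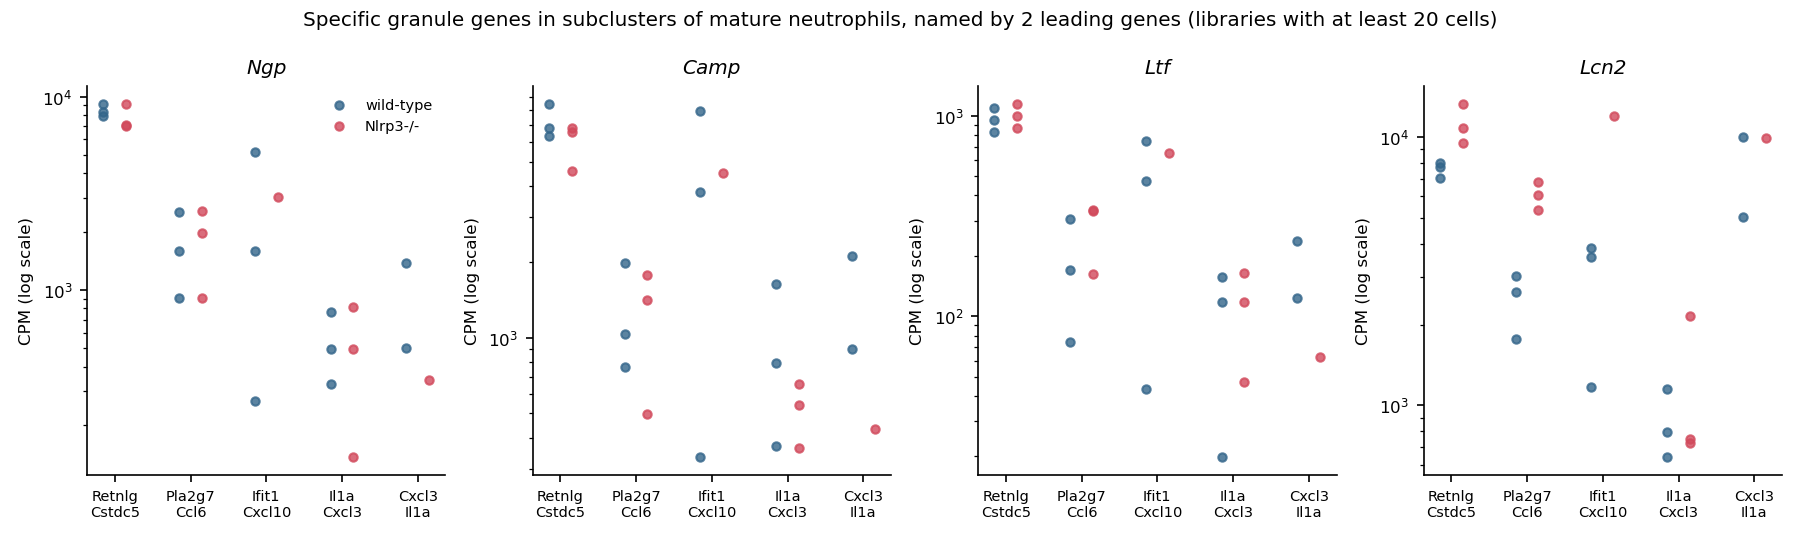
Ngp, Camp, Ltf and Lcn2 (CPM, log scale) in the 5 subclusters of mature neutrophils, named by their 2 leading genes, with 1 point per library that had at least 20 cells. Ngp, Camp and Ltf are highest in the Retnlg Cstdc5 subcluster, and Lcn2 reaches a similar level in the Cxcl3 Il1a subcluster where the other 3 genes are low.

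Cells with transcripts of both granule programmes were mostly early dividing precursors. A cell was counted as carrying a programme when its 4 genes held at least 1% of the UMIs of that cell. Among early dividing precursors, 628 of 1075 cells carried the azurophil programme alone and 384 carried both. Among late dividing precursors, 29 of 2090 cells carried both, at 0.442% to 3.06% of cells in a library, and 2054 carried the specific programme alone. None of the 6580 immature neutrophils carried the azurophil programme, which allows a share of up to 0.0456% (3 cells, counting error only), and 6469 carried the specific one. Of 10062 mature neutrophils, 1842 still carried the specific programme. The share of early dividing precursors with both programmes was between 29.3% and 47.7% in the 6 libraries. Doublets were removed by score before this count, and how far those that remained added to the cells with both was not tested.

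The 4 azurophil genes were not confined to neutrophils. Early dividing neutrophil precursors held a median of 78.0% of the Elane UMIs in all cells, 71.2% of Mpo, 62.4% of Prtn3 and 63.2% of Ctsg. Early F13a1 dividing cells, which are 715 of 70285 cells, held 13.4% of Elane, 21.5% of Mpo, 24.4% of Prtn3 and 27.1% of Ctsg. By contrast, neutrophils held 94.6% to 97.3% of the UMIs of Fcnb, Cebpe, Ngp, Camp, Ltf and Lcn2 at the median.

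Levels outside neutrophils were judged against free RNA, the RNA that leaks from broken cells into every droplet, measured in barcodes with at most 100 UMIs. Its levels were high, with medians of 516 CPM for Elane, 262 CPM for Mpo, 7312 CPM for Camp and 1695 CPM for Lcn2. Free RNA carries all neutrophil genes at 1 ratio into a given cell type. The level of each gene over free RNA was therefore divided by the same quantity for S100a8 or S100a9, whichever was larger, which are abundant neutrophil genes. Free RNA alone would give a value near 1.

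In early F13a1 dividing cells this relative level was 39.6 for Elane, 57.2 for Mpo, 73.5 for Prtn3 and 65.7 for Ctsg as the median, and above 1 in 6 of 6 libraries for each. Their levels there were 1749 to 3744 CPM for Elane and 4458 to 6324 CPM for Prtn3, which is also above free RNA itself in all 6 libraries. Ngp, Camp and Ltf were at 0.937, 0.615 and 0.633, and Cebpe at 2.41 with at most 29.9 CPM, below its free RNA level. Of the 715 cells, 371 carried the azurophil programme alone, 6 carried both programmes and 29 the specific programme alone, the last at 0% to 17.9% of cells in a library. Before the neutrophil lineage was divided further, 7.41% of these cells lay in clusters named as neutrophils. Lcn2 was at 1.74, above 1 in 6 of 6 libraries, with 164 to 479 CPM, below its free RNA level in each. Irf8 and Klf4, regulators of monocytes, had medians of 313 and 124 CPM in these cells and 3.00 and 3.96 CPM in early dividing neutrophil precursors, while Gfi1, a regulator of granulocytes, was at 5.31 and 52.8 CPM.

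In late F13a1 dividing cells Prtn3 stood at 11.9 and Ctsg at 6.29 over free RNA on the same scale, and Mpo at 2.11. Prtn3 was at 1091 to 1706 CPM in these cells, above its level in late dividing neutrophil precursors in all 6 libraries. Ngp, Camp and Ltf were at 0.174, 0.125 and 0.206, and Lcn2 at 1.27, above 1 in 5 of 6 libraries. Of 1058 late F13a1 dividing cells, 15 carried the azurophil programme. In the monocyte cluster led by Ccr2 and Ms4a4c, Prtn3 was at 6.28 with 224 to 366 CPM and Fcnb at 3.17, each above 1 in 6 of 6 libraries, whereas Mpo was at 1.07. Here Prtn3 lay below its own level in free RNA in each library.

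Cells named by mast cell or basophil markers, 531 in all, carried Ctsg and Mpo, and Elane only below its level in free RNA. Ctsg was at 957 to 1201 CPM and Mpo at 426 to 959 CPM, both above free RNA itself in all 6 libraries. Relative to S100a8 or S100a9 they stood at 152 and 87.9, Prtn3 at 34.3 and Elane at 9.32. With doublets kept, the values for Ctsg and Mpo were 43.3 and 29.1. In plasmacytoid dendritic cells Prtn3 was at 9.39 and above 1 in 6 of 6 libraries, with 92.4 to 557 CPM in 5 libraries and 1368 CPM in Nlrp3-/- replicate 1. Elane was at 1170 CPM in the 62 cells of that library and at 608 CPM in Nlrp3-/- replicate 2, against 5.66 to 31.3 CPM in the other 4 libraries.

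Ngp, Camp and Ltf had medians between 0.584 and 1.36 on this scale in the 11 named classes outside neutrophils. Lcn2 was at 1.20 in B cells and at 1.66 in mast cells or basophils, above 1 in 4 of 6 libraries. It was at 1.84 in all 12732 mesenchymal cells and at 2.84 in their cluster led by Prg4 and Cxcl5, above 1 in 6 of 6 libraries in each case. In that cluster Lcn2 was at 224, 121 and 108 CPM in the wild-type libraries and at 93.6, 182 and 147 CPM in the Nlrp3-/- libraries. The groups overlapped, and each value was below the free RNA level of the same library. Of 8 genes induced with Lcn2 in stromal cells, Saa3, Cxcl1 and Cxcl5 had median levels of 227, 169 and 269.9 CPM in mesenchymal cells. Saa1 was at 0.574 CPM and Nfkbiz at 51.8 CPM there. Cxcl1 was higher in macrophages and monocytes (343 CPM) and in mature neutrophils (292 CPM). Saa3 was higher in early F13a1 dividing cells (319 CPM), whereas Cxcl5 was at 2.59 CPM in macrophages and monocytes.

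**Figure D3:**
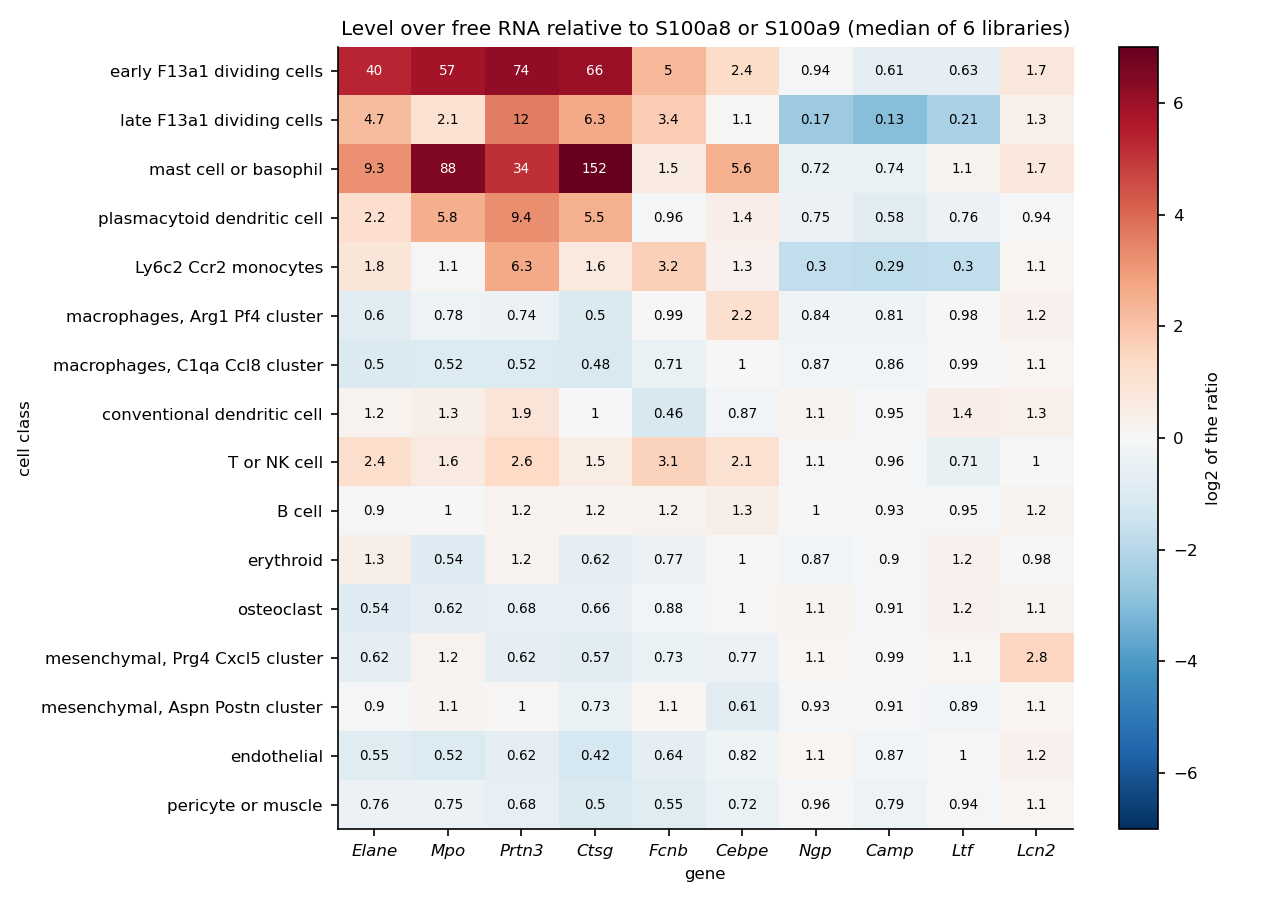
Level over free RNA, divided by that of S100a8 or S100a9, for 10 genes (columns) in 16 cell classes or clusters outside neutrophils (rows), as the median of 6 libraries, with the colour on a log2 scale. A value near 1 is the level free RNA gives in cells that make neither S100a8 nor S100a9. The azurophil genes stand far above it in early F13a1 dividing cells and in mast cells or basophils.

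Across 17 cell classes and 6 libraries (102 points), the genes other than the 10 themselves whose log2 CPM was most like that of Cebpe among 9968 genes were Abca13 (Pearson's r = 0.937), Gca (0.926), Wfdc21 (0.919), Prom1 (0.918) and S100a8 (0.910). Gca encodes the granule protein grancalcin. Among the 10 genes themselves Cebpe was most like Camp (0.929) and Ngp (0.909), and least like Ctsg (0.370) and Mpo (0.453). Elane and Ltf had an r of 0.138. These values describe points that share libraries, depth and free RNA.

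Among other granule genes, some followed the azurophil or the specific pattern and others followed neither. Unlike the genes followed above, these were not left out of the clustering. Prss57 is a leading gene of the early dividing subcluster, Mmp8 of immature subclusters and Retnlg of a mature one. The patterns of such genes can therefore follow in part from how the stages were made, and they are no independent check of the stages. Prss57, a serine protease of azurophil granules, was at a median of 352 CPM in early dividing precursors, 46.7 in late ones and 7.00 in immature neutrophils. Cd177 was at 59.3, 676 and 933 CPM in the same 3 stages, and Pglyrp1, a peptidoglycan-binding protein, at 883, 2079 and 2712 CPM. The gelatinase Mmp9 and the collagenase Mmp8 came later, at 106 and 26.4 CPM in late dividing precursors against 2141 and 1510 CPM in immature neutrophils. Srgn, a granule proteoglycan, was at 4157 CPM in early and 319 CPM in late dividing precursors, and at 9185 CPM in mature neutrophils. Ctsc changed little, with medians of 12.8 to 38.9 CPM over the stages. Retnlg was highest in mature neutrophils, at 18658 CPM. Bpi had a median of 0 CPM in each neutrophil stage.

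Nlrp3-/- and wild-type libraries, which also differ in sex, were compared by summing UMIs per library within a class and fitting all genes (edgeR quasi-likelihood test, TMM scaling, Benjamini-Hochberg adjustment, threshold 0.05). None of the 10 genes passed in the comparisons that use a whole class. In all cells 0 of the 10 passed, where 0.156% of 17319 genes did, and in all neutrophils 0 of the 10 passed, where 0.325% of 11709 genes did. In dividing precursors 0 of 10 passed against 1.48% of 10303 genes, in immature neutrophils 0 of 10 against 0.979% of 8378 genes, and in mature neutrophils 0 of the 9 tested against 0.142% of 7053 genes. In macrophages and monocytes 0 of 10 passed against 0.424% of 12507 genes, and in mesenchymal cells 0 of 10 against 0.121% of 14824 genes.

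At an unadjusted p under 0.05 there were 2 of the 9 genes tested in mature neutrophils, where 7.22% of all genes tested had one, 1 of 10 in dividing precursors (15.5%) and 1 of 10 in macrophages and monocytes (18.7%). There were 0 in the other 4 comparisons. DESeq2 called 0 in all 7. Among the larger differences, Ctsg in mature neutrophils had a log2 fold change (Nlrp3-/- over wild-type) of 1.01 ± 0.41 (SE; adjusted p = 0.677), Camp one of -0.83 ± 0.36 (adjusted p = 0.678), and Lcn2 one of 0.65 ± 0.34 (adjusted p = 0.723). Camp was at -0.43 without wild-type replicate 1, and Lcn2 at 0.44 without wild-type replicate 2 and 0.37 without Nlrp3-/- replicate 1. Over all 18 alternatives Camp lay between -1.08 and -0.20, and Lcn2 between 0.37 and 1.11. Ctsg was low in these cells, at 10.6, 7.04 and 8.28 CPM in wild-type and 8.07, 25.9 and 24.0 CPM in Nlrp3-/- libraries, from 13 to 46 UMIs a library. Its share of mature cells with a UMI at equal depth, 0.563%, was below the 0.639% of B cells, so it is read as background. In immature neutrophils it was at 0.67 ± 0.38 (adjusted p = 0.479). Ngp in immature neutrophils was at -0.43 ± 0.21 (adjusted p = 0.398). It passed only when wild-type replicate 3 was left out (-0.62, adjusted p = 0.0428). Summed over all cells, no gene differed between genotypes by the exact permutation test, with p-values of 0.5 to 1, where 0.1 is the smallest that 3 against 3 libraries allow.

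The share of neutrophils and their mix of stages varied between libraries. Neutrophils were 31.5% to 40.5% of all cells in wild-type and 18.6% to 27.8% in Nlrp3-/- libraries, without overlap (two-sided exact permutation p = 0.1, the smallest possible). Among cells with at least 1000 UMIs these shares overlapped (exact permutation p = 0.2). Dividing precursors were 11.4% ± 4.29 of neutrophils in wild-type and 21.8% ± 9.40 in Nlrp3-/- libraries (SD, n = 3; two-sided exact permutation p = 0.3). With the cells that were set aside included, these shares were 7.10% to 15.7% and 15.9% to 29.4%, without overlap (exact permutation p = 0.1). Mature neutrophils were 59.5% ± 12.05 and 31.9% ± 21.4 (exact permutation p = 0.2). Nlrp3-/- replicate 1, with 56.4% mature neutrophils, lay among the wild-type libraries, at 47.5% to 71.6%, and apart from the other two Nlrp3-/- libraries at 16.6% and 22.8%. Different subclusters also held the mature cells of different libraries. The Il1a Cxcl3 subcluster held 2149 of 3365 mature cells in wild-type replicate 2, and the Pla2g7 Ccl6 subcluster held 386 of 499 in Nlrp3-/- replicate 2.

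Fits were also made within each of the 7 neutrophil subclusters that had at least 20 cells in every library, a step chosen after the values were seen. Over 55 tests of the 10 genes, 4 passed, all of them in 2 subclusters. They were Elane, Mpo and Ctsg in late dividing precursors and Lcn2 in mature neutrophils of the Pla2g7 Ccl6 subcluster. The same 4 passed when p-values were adjusted over the 37947 tests of all 7 subclusters together, where 1.37% passed. In the early dividing precursors 0 of 10 passed against 1.15% of 9217 genes. In the remaining subclusters tested 0 passed, against 0.328% (Il1a Cxcl3), 0.405% (Mmp8 Ldhc), 1.51% (Orm1 Chil3) and 1.58% (Retnlg Cstdc5) of the genes tested. At an unadjusted p under 0.05 there were 2 of 10 genes in early dividing precursors, where 16% of all genes tested had one, and 3 of 10 in the Orm1 Chil3 immature subcluster (16.1%). The 3 were Prtn3 at 0.73, Ngp at -0.49 and Camp at -0.35 (adjusted p = 0.145, 0.147 and 0.268), and Mpo was at 0.63 and Ctsg at 0.71 there (adjusted p = 0.356 and 0.428). In the 6 libraries these azurophil genes lay at 2.95 to 34.9 CPM in that subcluster, against 176 to 1029 CPM in free RNA, and no difference is read from them. In immature neutrophils as a whole the shares of cells with a UMI at equal depth were 0.855% for Prtn3, 0.599% for Mpo and 0.442% for Ctsg, against 1.09%, 0.499% and 0.639% in B cells. There were 2 of the 5 genes tested in the Retnlg Cstdc5 subcluster (18.6%), and 0 of 4 in the Il1a Cxcl3 subcluster (12.4%) and 0 of 9 in the Mmp8 Ldhc subcluster (12%).

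In late dividing precursors, Elane, Mpo and Ctsg were lower in Nlrp3-/- libraries, while Prtn3 did not pass. Elane was at 591, 495 and 663 CPM in wild-type replicates 1 to 3 and at 383, 415 and 247 CPM in Nlrp3-/- replicates 1 to 3. The groups did not overlap, and the means were 583 ± 84.2 and 348 ± 89.2 CPM (SD, n = 3). The fitted log2 fold change was -1.04 ± 0.18 (SE; adjusted p = 0.00760). Mpo was at 83.4, 65.4 and 80.7 CPM in wild-type and 54.1, 44.7 and 27.4 CPM in Nlrp3-/- libraries, again without overlap. Its log2 fold change was -1.25 ± 0.21 (adjusted p = 0.00639).

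Ctsg was at 42.7, 22.0 and 35.6 CPM in wild-type and 21.1, 22.2 and 20.1 CPM in Nlrp3-/- libraries. Its groups overlapped through wild-type replicate 2, and the fit gave -1.03 ± 0.21 (adjusted p = 0.0242). In free RNA Mpo was at 220 to 291 CPM in wild-type and 176 to 637 CPM in Nlrp3-/- libraries. Ctsg was at 202 to 335 CPM and 233 to 605 CPM there. Both genes lay below these levels in late dividing precursors. Elane in free RNA was at 400 to 615 CPM in wild-type and 288 to 908 CPM in Nlrp3-/- libraries. These ranges overlapped those of Elane in late dividing precursors of the same genotype. The part of free RNA in the differences of Elane, Mpo and Ctsg was not tested. Prtn3 was at 489, 430 and 539 CPM against 408, 442 and 265 CPM, with overlap, and did not pass at -0.68 ± 0.17 (adjusted p = 0.0528). In all, 3 of the 10 genes passed, all lower, where 1.95% of 8623 genes passed and 1.44% were lower. Elane passed without any 1 library. Mpo missed the threshold without Nlrp3-/- replicate 2 (adjusted p = 0.0685). Ctsg missed it without wild-type replicate 1 (adjusted p = 0.165), Nlrp3-/- replicate 2 (0.178) or Nlrp3-/- replicate 3 (0.119). The shares of late dividing cells with a UMI overlapped between genotypes for Elane, at 31.8% to 36.4% in wild-type and 27.6% to 42.0% in Nlrp3-/- libraries, and for Mpo, at 16.6% to 20.8% and 11.2% to 22.0%. They also overlapped for Ctsg, at 13.1% to 23.2% and 9.21% to 15.5%. The part of the 29 of 2090 late dividing cells that carried both programmes in these differences was not tested. Of the other 6 genes, Fcnb was at -0.51 (adjusted p = 0.0887), Ngp at -0.49 (adjusted p = 0.148) and Camp at -0.40 (adjusted p = 0.214). Cebpe was at -0.14, Lcn2 at -0.03 and Ltf at 0.04, with adjusted p-values of 0.632, 0.953 and 0.909. At an unadjusted p under 0.05 there were 7 of the 10 genes, the 4 azurophil genes with Fcnb, Ngp and Camp, where 16.9% of all genes tested had one.

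The scale of these fold changes rests on the reference. Scaled by total UMIs alone, the median gene of late dividing precursors was at 0.33 rather than 0.02. On that scale Elane was at -0.75 (adjusted p = 0.0285), Mpo at -0.92 (adjusted p = 0.0273) and Ctsg at -0.69 (adjusted p = 0.0711). None of the 10 genes passed when they were kept for clustering, where Elane was at -0.50 (adjusted p = 0.190) and Mpo at -0.66 (adjusted p = 0.117). Median UMIs per cell were 10349 to 11770 in wild-type and 7638 to 8773 in Nlrp3-/- late dividing precursors. The 10 neutrophil markers, led by S100a8 and S100a9, summed to 270061 to 304578 CPM in wild-type and 208940 to 262711 CPM in Nlrp3-/- libraries, and 1 of them passed, lower. The 9 early precursor markers summed to 5427 to 6982 CPM and 6996 to 7545 CPM, and 1 of 9 passed, lower. The 10 dividing markers summed to 3688 to 4289 CPM in wild-type and 4572 to 5355 CPM in Nlrp3-/- libraries, and 0 passed. The 8 immature markers summed to 2479 to 2898 CPM and 3045 to 3450 CPM, and 1 of 8 passed, lower, while the 10 mature markers summed to 1664 to 2413 CPM and 1417 to 1783 CPM, and 0 passed. Markers of 2 other classes each held 1 gene that passed. The T or NK cell markers summed to 87.4 to 108 CPM in wild-type and 57.8 to 76.5 CPM in Nlrp3-/- libraries, with 1 of 2 tested lower, and the mesenchymal markers to 171 to 352 CPM and 312 to 949 CPM, with 1 of 8 tested higher. The part of these in the azurophil differences was not tested.

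In early dividing precursors the same genes were close between genotypes. Elane was at 15237 ± 1300 CPM in wild-type and 14447 ± 1207 CPM in Nlrp3-/- libraries (SD, n = 3), with a fitted log2 fold change of -0.29 ± 0.15 (adjusted p = 0.36). Mpo was at -0.22, Prtn3 at -0.10 and Ctsg at -0.03. Whether the genotype difference itself differed between late and early dividing precursors was tested with the library as a block. All 4 azurophil genes passed, each with a lower fold change (Nlrp3-/- over wild-type) in late than in early dividing precursors. Of 9678 genes, 0.124% passed and 0.093% passed in this direction. The differences of log2 fold changes were -1.09 ± 0.15 for Mpo (adjusted p = 0.00086), -0.80 ± 0.16 for Elane (adjusted p = 0.0435), -0.98 ± 0.19 for Ctsg (adjusted p = 0.0365) and -0.63 ± 0.13 for Prtn3 (adjusted p = 0.0435). With total UMIs as the scale, Mpo alone passed. Leaving out 1 library left 1 of the 4 without Nlrp3-/- replicate 1 or 2, 2 without Nlrp3-/- replicate 3 or wild-type replicate 1 or 3, and 4 without wild-type replicate 2.

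**Figure D4:**
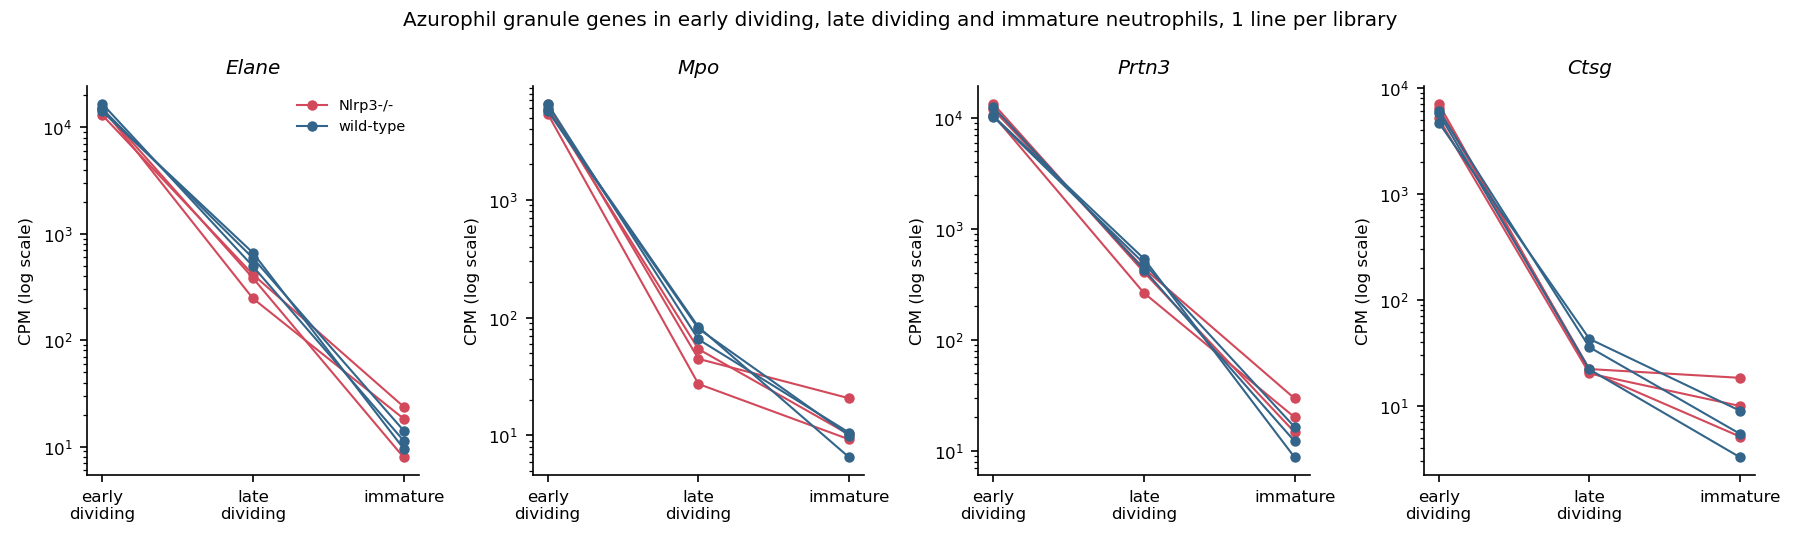
Elane, Mpo, Prtn3 and Ctsg (CPM, log scale) in early dividing, late dividing and immature neutrophils, with 1 line per library. The libraries lie close together in early dividing precursors, and in late dividing precursors the 3 Nlrp3-/- libraries lie below the 3 wild-type libraries for Elane and Mpo.

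In mature neutrophils of the Pla2g7 Ccl6 subcluster, Lcn2 was higher in Nlrp3-/- libraries. It was at 1761, 2653 and 3033 CPM in wild-type replicates 1 to 3 and at 5343, 6058 and 6765 CPM in Nlrp3-/- replicates 1 to 3. The groups did not overlap, and the smallest library, Nlrp3-/- replicate 1, had 62 cells. The log2 fold change was 1.25 ± 0.21 (SE; adjusted p = 0.00182), and 1 of the 7 genes tested passed, where 3.71% of 4339 genes did and 1.47% were higher. It passed under all 14 alternatives tried, between 1.05 and 1.73. Ltf was at 0.67 ± 0.35 (adjusted p = 0.324). It was at 0.29 without wild-type replicate 1 (adjusted p = 0.752), and it passed without wild-type replicate 3 (1.30, adjusted p = 0.00666) and with the 10 genes kept for clustering (2.34, adjusted p = 0.0245). Ngp was at 0.10 and Camp at -0.02.

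Lcn2 had a log2 fold change of 0.54 in the Il1a Cxcl3 subcluster (adjusted p = 0.615) and of 0.44 in the Retnlg Cstdc5 subcluster (adjusted p = 0.149). The difference between the Pla2g7 Ccl6 and Il1a Cxcl3 subclusters was 1.03 (adjusted p = 0.667). There 0 of the 8 genes tested passed, 1 had an unadjusted p under 0.05, as did 6.64% of all genes tested, and 0.103% of 4832 genes passed. A larger Lcn2 difference in the Pla2g7 Ccl6 subcluster was therefore not shown. Among the 7 tested of 8 immature stage markers, which summed to 2374 to 3990 CPM in wild-type and 3176 to 5054 CPM in Nlrp3-/- cells of this subcluster, 1 passed, higher. Among the 4 tested of 9 early precursor markers, which summed to 1617 to 2232 CPM and 2187 to 2332 CPM, 1 passed, higher. Among the 10 mature stage markers 1 passed, lower. Their part in the Lcn2 difference was not tested.

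**Figure D5:**
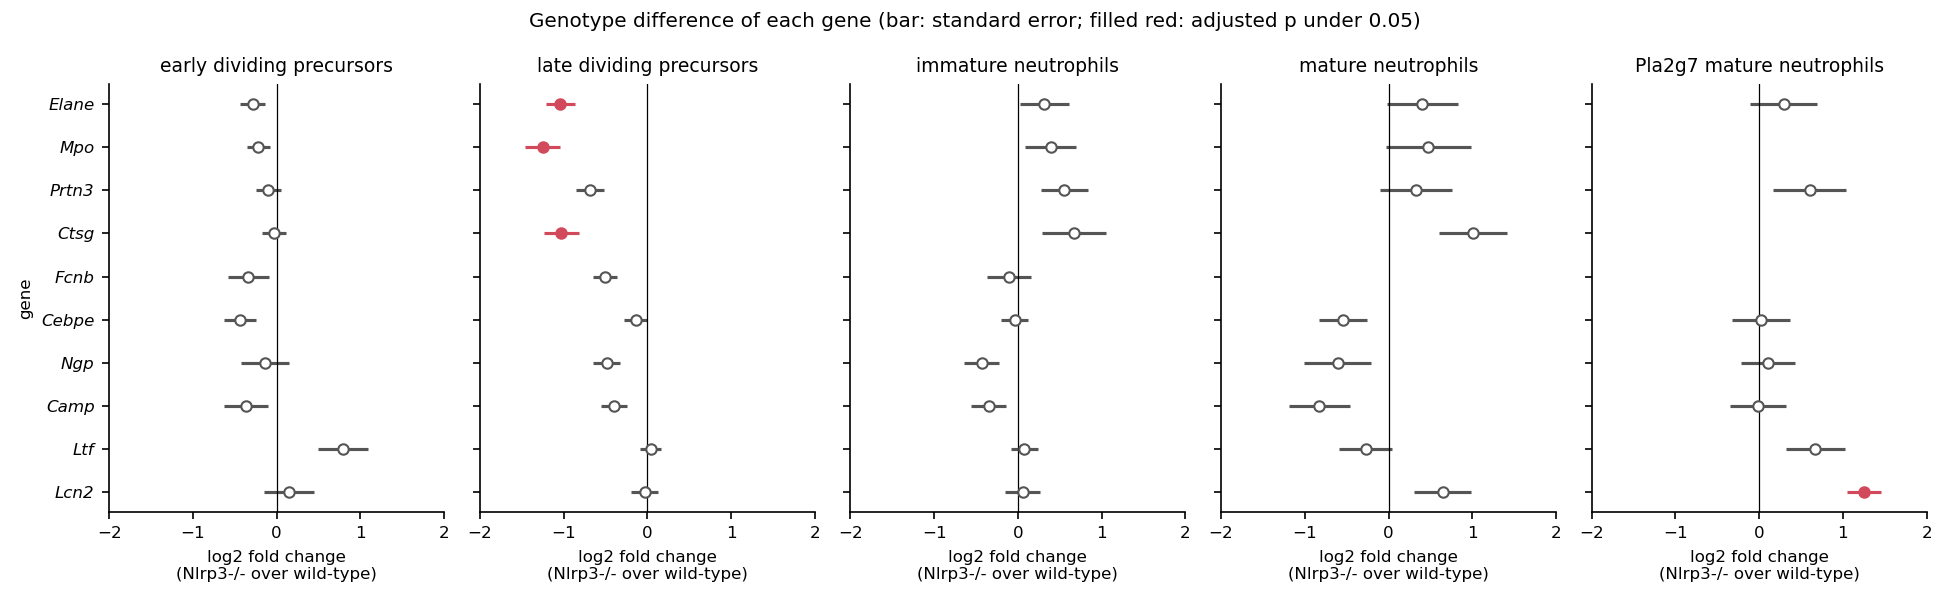
Log2 fold change (Nlrp3-/- over wild-type) of each of the 10 genes, with its standard error, in 5 neutrophil populations, where filled red points have an adjusted p under 0.05. Points are missing for genes too low to be tested, and the 4 filled points are Elane, Mpo and Ctsg in late dividing precursors and Lcn2 in Pla2g7 mature neutrophils.

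Some other granule genes also differed between genotypes. Of 19 other granule genes, 2 of the 18 tested passed in immature neutrophils, where 0.979% of all genes did, and 2 of 18 in dividing precursors (1.48%), all lower in Nlrp3-/- libraries. In late dividing precursors 5 of 18 passed (1.95%), 4 lower and 1 higher. In all neutrophils 1 of 18 passed, lower (0.325%), and in macrophages and monocytes 1 of 17, also lower (0.424%). Chil3, a chitinase-like protein, fell by 2.26 on the log2 scale in immature neutrophils (adjusted p = 2.01e-05) and by 2.27 in late dividing precursors (adjusted p = 1.74e-07). In macrophages and monocytes it was the gene that passed, at -2.92 (adjusted p = 0.0447). Its reads may be split with its close copy Chil4, so its level is uncertain. Retnlg, a resistin-like protein, fell by 1.00 in immature neutrophils (adjusted p = 0.0200) and by 2.26 in late dividing precursors (adjusted p = 0.000782). The collagenase Mmp8 fell by 1.85 and the granule proteoglycan Srgn by 1.18 in late dividing precursors, and Olfm4, a specific granule protein, was higher by 0.74 (adjusted p-values 0.00959, 0.0245 and 0.0472). The median log2 fold change of the 18 genes tested there was -0.24 and that of the 10 genes -0.50, beside 0.02 for all genes.

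Regulators of the lineage did not pass in any comparison of a whole class. Of 10 regulators, including Cebpa, Gfi1 and Spi1, 9 were tested in late dividing precursors and 0 passed, where 1.95% of all genes did, with a median log2 fold change of -0.16 beside 0.02 for all genes. In the Orm1 Chil3 immature subcluster Cebpb fell by 1.19 (adjusted p = 0.0211). Of 8 genes induced with Lcn2 in stromal cells, all were tested in mesenchymal cells and 0 passed, where 0.121% of all genes did, with a median log2 fold change of -0.72 beside 0.04 for all genes. In Pla2g7 mature neutrophils, where Lcn2 was higher, the chemokine gene Cxcl1 of the same list fell by 2.22 (adjusted p = 0.000315). Of 6 genes for receptors and inhibitors of the granule proteins, which include Slpi and Fpr2, 0 passed in any of the 7 comparisons of a whole class, where 0.121% to 1.48% of all genes did.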

How the data were processed

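Single-cell RNA of the enthesis was sequenced from 6 libraries, 3 wild-type and 3 Nlrp3-/-, at 7 days after injury. As deposited by the authors, each file holds raw UMI counts for every barcode, with no normalization. Their processing notes name Cell Ranger 2.1.1 and build mm10, whereas the file headers name Cell Ranger 4. Barcodes with at least 500 UMIs and 200 genes, at most 10% mitochondrial UMIs and a profile unlike free RNA (false discovery rate 0.01, 10000 simulated profiles) were kept, and 828 to 5348 doublets per library were removed by score (0.8% per 1000 cells). Cells were clustered with scanpy 1.11.5 and leidenalg 0.10.2 on 2000 variable genes, without the 10 genes and Nlrp3, at resolution 1. Clusters were named from markers. UMIs were summed per library and class, and genotypes were compared with edgeR 4.0.16 in R 4.3.3 (quasi-likelihood test, TMM scaling, Benjamini-Hochberg adjustment over all genes tested, threshold 0.05), with DESeq2 1.42.0 as an alternative. On simulated counts for all neutrophils (11709 genes), 97 of 100 genes changed 4-fold and 100 of 100 changed 8-fold were recovered, with 18 false calls in each case. Changes smaller than 4-fold, which include those of the 10 genes in whole classes, were not simulated. Single values were compared by two-sided exact permutation tests. All 10 genes were named whatever their values, and the 5 genes most like Cebpe by Pearson's r. The genes and the lists were chosen with earlier results of these data known, and the fits within subclusters and between subclusters were added after the data were seen. Intervals and upper limits cover counting error only.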

Additional observations from a re-analysis of the deposited data

Results flagged for a closer look

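The 4 azurophil genes were picked out because the genotype difference itself differed between late and early dividing neutrophil precursors (edgeR interaction test with the library as a block). The difference of log2 fold changes, late minus early, was -1.09 for Mpo, -0.98 for Ctsg, -0.80 for Elane and -0.63 for Prtn3. The test was added after the data were seen. Among 8 alternatives with the same direction, Mpo passed the threshold in 7, Ctsg in 4, Elane in 3 and Prtn3 in 1. Each alternative left out 1 library or changed the scaling, and none redid the clustering that separates early from late dividing precursors. With the granule genes kept for clustering, none of the 4 passed in late dividing precursors alone. Whether the difference between late and early would hold under that clustering was not tested.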

How the results depend on the processing

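None of the 10 genes passed in a whole class under any alternative, except Ngp in immature neutrophils without wild-type replicate 3, so that leaving out single libraries gave 0 to 1 there. With 3 libraries a genotype the exact permutation tests could not go below 0.1, and sex and genotype cannot be told apart.

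The number of genes called moved more. DESeq2 called 307 genes in all cells (27 in edgeR), 193 in all neutrophils (38), 36 in mature (10), 133 in immature (82) and 287 in dividing neutrophils (152), 484 in macrophages (53) and 231 in mesenchymal cells (18). With no filter on low counts the numbers were 176 in all neutrophils, 110 in mature, 388 in immature, 591 in dividing, 345 in macrophages, 576 in late dividing precursors (168) and 266 in the Pla2g7 subcluster (161). Leaving out 1 library gave 17 to 29 in all cells, 10 to 326 in all neutrophils, 6 to 12 in mature, 39 to 816 in immature, 57 to 994 in dividing, 23 to 2089 in macrophages, 6 to 320 in mesenchymal cells, 33 to 1070 in late dividing precursors and 33 to 669 in the Pla2g7 subcluster. The highest was without wild-type replicate 3, except in all neutrophils and mature neutrophils, where it was without Nlrp3-/- replicate 1. Counting the transitional Retnlg subcluster as immature gave 190 genes in immature neutrophils and turned Ngp in mature neutrophils from -0.61 to 0.29.

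In late dividing precursors 445 genes were called with total counts and 341 at resolution 2. Of the 10 genes (3 called), 6 passed with no filter, 6 with DESeq2, 5 at resolution 2, 0 when they were kept for clustering, and 1 to 6 without 1 library. In the Pla2g7 subcluster (1 called), 320 genes and 2 of the 10 passed when they were kept for clustering, and 1 to 2 without 1 library. In the late against early test (12 genes, 4 of the 10), RLE factors gave 7 genes and 2 of the 10, total counts 1 of the 10, and leaving out 1 library 4 to 30 genes and 1 to 4 of the 10.

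Libraries shared only a replicate number. Deviations of same-numbered libraries correlated at -0.58 to 0.08 (median -0.15, 21 pairs), and in 4 of 42 cases over 7 comparisons a library was most like the one of its own number. With a replicate block, 12 genes were called in all cells, 15 in all neutrophils, 31 in macrophages, 5 in mesenchymal cells and 260 in the Pla2g7 subcluster, and 4 of the 10 in late dividing precursors, Prtn3 being added.

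Over free RNA in mesenchymal cells, Ngp was at 1.08 and at 0.672 by share of cells after thinning, Camp at 0.978 and at 1.02 with doublets kept, and Ltf at 1.05, at 0.961 against barcodes with 10 to 50 UMIs and at 0.876 by share of cells. Cebpe in early dividing precursors over immature neutrophils went from 0.16 to -0.26 on the log2 scale when the 10 genes were kept for clustering. The cause was not tested for any of these.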
